A study of Mus musculus with 6 samples.

Results

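The contacts of the Polycomb partner protein JARID2 with Enah RNA were read from a pair of deposited lists of RNA contact sites, in which Enah held 172 of 28728 sites. Of these, 167 came from the list of untreated cells, which has 23380 sites, and 5 from the list of retinoic acid-treated cells, which has 5348. The members are all sites on the minus strand of chromosome 1 between positions 183826000 and 183951000 of the mouse mm9 build. Enah is read from the higher coordinate to the lower, so its 5′ end lies at the upper edge of this window of 125 kb. The gene was chosen by the numbers of its sites in the 2 lists, because they differed so much. The difference in number is therefore a description here, with no test.

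The cells are E14, a line of mouse embryonic stem cells, kept in medium with serum and LIF, the cytokine that holds such cells in the pluripotent state. One group of 3 libraries was left untreated, and the other group of 3 was differentiated with 2 µM retinoic acid (RA in the labels) for 24 h. Both groups were labelled with 4-thiouridine (4-SU in the labels), a photoreactive form of uridine, at 500 µM over 2 h, then given 400 mJ/cm2 of ultraviolet light of 312 nm. JARID2 was then immunoprecipitated from whole-cell extracts with an antibody made in-house, an assay known as PAR-CLIP. Both groups are wild-type cells of the same line. Each list pools 3 libraries, so there is 1 value per condition and no spread between replicates, and read depth per library is unknown. The lists hold no expression values, so the cells were not checked against marker genes. In these bulk samples, fewer Enah transcripts and fewer contacts per transcript cannot be told apart.

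Enah, also called Mena, encodes the mammalian Enabled protein, a member of the Ena/VASP family. These proteins sit at the growing ends of actin filaments, shield them from capping proteins and pass on actin monomers bound to profilin, and so shape lamellipodia, filopodia and the growth cones of axons. An EVH1 domain brings them to focal adhesions and the leading edge, and an EVH2 domain binds actin and joins the molecules into tetramers. JARID2 recruits and stimulates PRC2, the Polycomb complex that methylates histone H3 at lysine 27, and both JARID2 and PRC2 bind RNA. In RefSeq's table of the later GRCm38 build, Enah has the gene number 13800 and lies between the protein-coding genes Lbr, for the lamin B receptor, and Srp9, for a protein of the signal recognition particle. No annotation or genome sequence of mm9 was used, so sites are given by position and not as exon, intron or UTR, and the name Enah rests on the stated window.

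Contacts ran along nearly the whole untreated window. The most upstream untreated site lay at chr1:183948884-183948891, 2.11 kb from the upstream edge, and the most downstream one at chr1:183830983-183830998, 4.98 kb from the downstream edge. Between them lay 118 kb. The window stood alone on its strand. The next untreated site downstream was 75.2 kb away, at chr1:183755758-183755767, and the next one upstream was 259 kb away, at chr1:184208020-184208031. In the treated list the nearest sites on either side were 95.9 and 270 kb from the outermost treated Enah sites. Moving the edges of the window within the stretches beside Enah that are empty in both lists changes no member.

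All 167 untreated sites and all 5 treated sites in the window lay on the strand of Enah. The plus strand of the same window held 0 sites in either list, and 0 within a further 50 kb on each side. The exact 95% interval for the share of untreated sites on the minus strand ran from 97.8% to 100%, and it covers counting error only. For the 5 treated sites the same interval ran from 47.8% to 100%, so they say little. Sites on 1 strand alone were the usual case: 473 of 489 regions with at least 10 sites had no untreated site on the opposite strand.

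**Figure D1:**
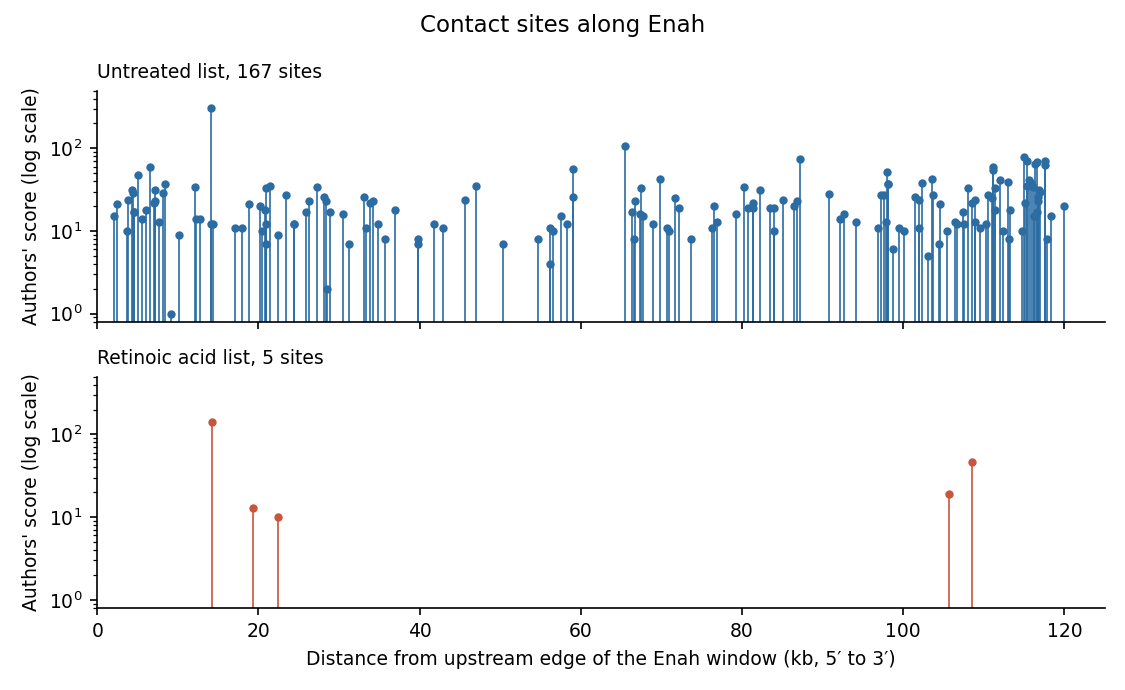
Contact sites along Enah, with the distance from the upstream edge of the window in kb on the x axis and the authors' score on a log y axis; each line and point is 1 site, untreated above and retinoic acid below. The 167 untreated sites run through the whole gene with 1 high site 14.2 kb from the edge, and the 5 treated sites lie in a group of 3 near the 5′ side and a group of 2 near the 3′ side.

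The untreated sites were denser toward both ends of the gene than in its middle. From 5′ to 3′, the 5 equal parts of the window, each 25 kb long, held 40, 22, 23, 29 and 53 sites. The most downstream part thus had 31.7% of the sites (exact 95% interval 24.8 to 39.4%, counting error only) and the second part had 13.2% (8.44 to 19.3%). In steps of 10 kb, the number was lowest between 40 and 50 kb from the upstream edge, with 4 sites, and highest between 110 and 120 kb, with 32. The first 10 kb held 19. Sites of 1 transcript are not independent, so these intervals are likely too narrow.

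The densest stretch lay close to the 3′ end. From chr1:183833976-183836285, a span of 2.31 kb, 16 sites were listed, with a median score of 32.5 and a range of 10 to 79. Of these 16 sites, 13 scored at least 18. Inside it, 9 sites lay within 0.890 kb, from chr1:183833976-183834865. The treated list had no site here, and its nearest Enah site was 6.22 kb upstream.

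Sites mostly came singly and at irregular distances. The 166 gaps between neighbouring untreated sites had a median of 445.5 bases, with quartiles of 142.5 and 874 bases, and ran from 4 to 6501 bases. Their mean was 695 bases and their coefficient of variation 1.25. Only 17 gaps were of 50 bases or less, and joining sites across those left 150 sites. Gaps of at least 2000 bases numbered 11, of which the longest ran from 183885481 to 183891983, near the middle of the gene. The sites covered 2.21% of the stretch between the first and the last of them.

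**Figure D2:**
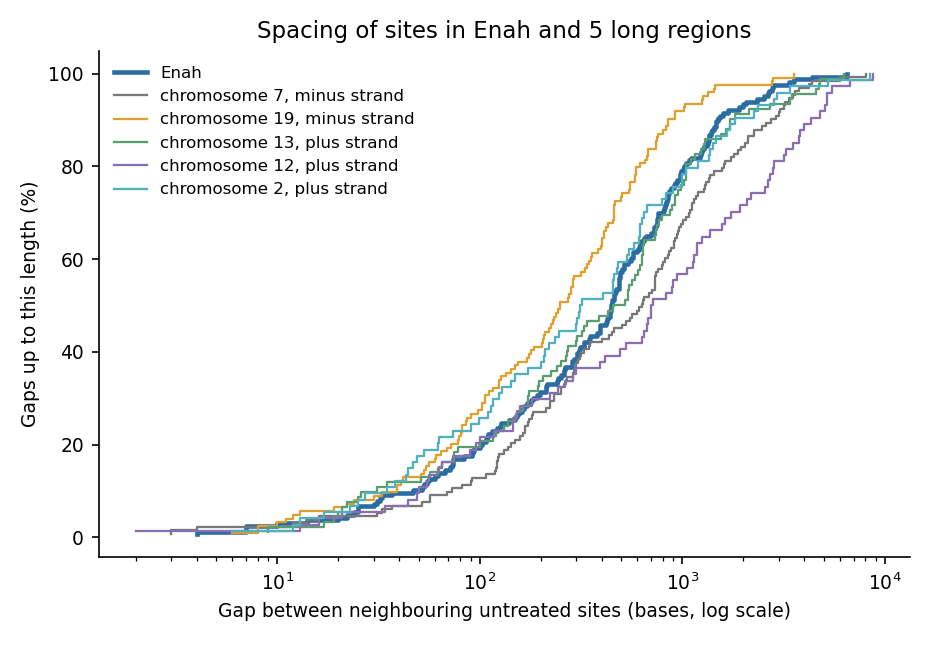
Cumulative share of gaps between neighbouring untreated sites (y axis, %) by gap length in bases (log x axis), for Enah and the 5 regions of at least 50 kb with the most untreated sites. At the median, Enah (445.5 bases) lies between the chromosome 19 region (249.5) and the chromosome 12 region (709.5).

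Enah held more sites than any other region of at least 50 kb, and its spacing lay within the range of the next 5. Regions here are runs of sites from either list on 1 strand with no gap over 10 kb, and 489 of 9482 regions held at least 10 sites. Enah ranked 2nd of 489 by untreated sites, behind 1 strand of the mitochondrial chromosome, and 1st of the 47 regions that span at least 50 kb. With 1.42 untreated sites per kb it ranked 2nd of those 47, whose median was 0.462 per kb, and 133rd of all 489, whose median was 0.730. The gene was chosen by its numbers of sites, so these ranks by number and by density are descriptions only. The 5 long regions with the most untreated sites next to Enah had median gaps of 249.5 to 709.5 bases and coefficients of variation of 1.22 to 1.65.

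Among long regions, Enah had one of the larger shares of sites near the 3′ end. For this comparison each region was divided by the span between its outermost sites, which puts 37.1% of untreated Enah sites in the last 20% of the span. That share ranked 2nd of 47 long regions, whose median was 17.6%, and 112th of 489 regions, whose median was 22.2%. In the 5 site-rich long regions, the last 20% of the span held 3.23 to 17.6% of the sites. The first 20% of Enah held 24.0%, against a median of 25.0% over the long regions, and the middle 20% held 13.2% against 17.3%. These ranks are descriptions of 1 list, with no test.

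Most Enah sites had scores in the middle of the list's range, and few had high ones. The authors' score is a whole number per site, and the sources used here do not say what it counts. The 167 untreated sites had a median score of 19 (quartiles 12 and 29, exact 95% interval of the median 17 to 22), against 17 (12 and 30) over the whole untreated list. Its median score ranked 5th from the highest of the 47 long regions, whose median was 17, and 215th of all 489, whose median was 18.5. Scores from 18 to 99 were held by 52.7% of Enah sites (44.8 to 60.5%) and 40.5% of the rest of the list. Scores of at least 100 were held by 2 Enah sites, or 1.20% (0.145 to 4.26%), against 8.14% of the rest. Under 10 were 19 Enah sites, or 11.4%, and 7.87% of the rest. Scores of 10 to 17 were held by 34.7% of Enah sites and 43.4% of the rest. Enah thus had larger shares from 18 to 99 and under 10 than the rest of the list, and smaller ones from 10 to 17 and from 100. A low share from 100 was usual among regions. Its 1.20% ranked 21st from the highest of the 47 long regions and 187th of all 489, with a median of 0% in both, and 301 of the 489 had none.

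A single untreated site stood above the others. It lay at chr1:183936807-183936828, 22 bases long and 14.2 kb from the upstream edge, with a score of 310, and 4.02% of the untreated list scored higher. The next was chr1:183885472-183885481, near the middle of the gene, with 106. After these came chr1:183835950-183835961 with 79, chr1:183863794-183863810 with 74 and chr1:183835685-183835695 with 71. The remaining 5 of the 10 highest scored 60 to 70, where the last place was tied between 2 sites at 60. Of the 11 sites scored at least 60, 7 lay beyond 110 kb from the upstream edge, in the site-rich 3′ stretch.

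The median score was highest in the 10 kb with the most sites, though the 2 highest single scores lay elsewhere. The median was 30.5 (quartiles 17.75 and 44.5) over the 32 sites between 110 and 120 kb. It was 15 over the 20 sites just upstream, between 100 and 110 kb, and ran from 11 to 22 over the other steps of 10 kb with more than 1 site. Over the 5 parts of 25 kb, the medians were 17.5, 17, 15, 19 and 24 from 5′ to 3′. Sites were short, with a median of 13 bases and a range of 4 to 61, against a median of 12 over the list. The longest, chr1:183884345-183884405, scored 8. The 15 sites of at least 30 bases had a median score of 19, and the other 152 had 18.5.

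After retinoic acid, 5 Enah sites were listed. Their scores were 143, 47, 19, 13 and 10 and their lengths 8 to 13 bases. In order from 5′ to 3′, chr1:183936782-183936792 scored 143, chr1:183931713-183931725 scored 13, chr1:183928617-183928624 scored 10, chr1:183845363-183845370 scored 19 and chr1:183842503-183842510 scored 47. The first 3 lay within 22.4 kb of the upstream edge, the last 2 lay 106 and 108 kb from it, and 83.2 kb between these groups held no treated site. Over the same 83.2 kb the untreated list had 89 sites.

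The highest-scored treated site lay next to the highest-scored untreated site. Only 14 bases separated the treated site of score 143 from the untreated site of score 310, a score ratio of 2.17. Of the treated list, 16.7% scored above 143. The treated site of score 47 lay wholly inside an untreated site, chr1:183842501-183842514, which scored 22. The treated site of score 10 lay 4 bases from the nearest untreated site, chr1:183928584-183928612, which scored 9. The other two lay 193 and 393 bases from the nearest untreated site. Thus 1 of 5 treated sites shared bases with an untreated site, and 3 of 5 lay within 100 bases of one. In the 5 long regions with the most untreated sites next to Enah, treated sites that shared bases numbered 3 of 8, 3 of 8, 2 of 8, 0 of 2 and 7 of 11. These were the regions on chromosomes 7, 19, 13, 12 and 2, in that order. The same shares over the whole treated list were not taken, so whether those of Enah are usual over the list cannot be said.

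Enah's number of sites differed far more between the lists than the lists did in length. The untreated to treated ratio was 33.4 for Enah and 4.37 for the lists, so Enah sites were 7.64-fold fewer in the treated list relative to its length. Enah made up 0.714% of the untreated list (exact 95% interval 0.610 to 0.831%) and 0.0935% of the treated list (0.0304 to 0.218%). Both intervals cover counting error only and are likely too narrow, since sites of 1 transcript are not independent. Enah was chosen by these numbers, so the intervals are no test of the difference. Summed scores were 4150 untreated and 232 treated, a ratio of 17.9, against 1.40 over the lists. The list sums, 6580243 untreated and 4702962 treated, include single sites of 480704 and 448416. The 1.40 thus leans on scores far above those of Enah. The highest-scored Enah site gave 7.47% of the Enah sum untreated and 61.6% treated, and without it in each list the Enah ratio was 43.1. Of the 489 regions, 4 were at least 4-fold lower in the treated list relative to list length, which is 0.818%, with treated numbers under 3 set to 3. A region needs at least 53 untreated sites to pass on that rule, and of the 23 regions with as many, 4 passed, or 17.4%. Enah was chosen for this contrast, so its place among the 4 shows nothing further.

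**Figure D3:**
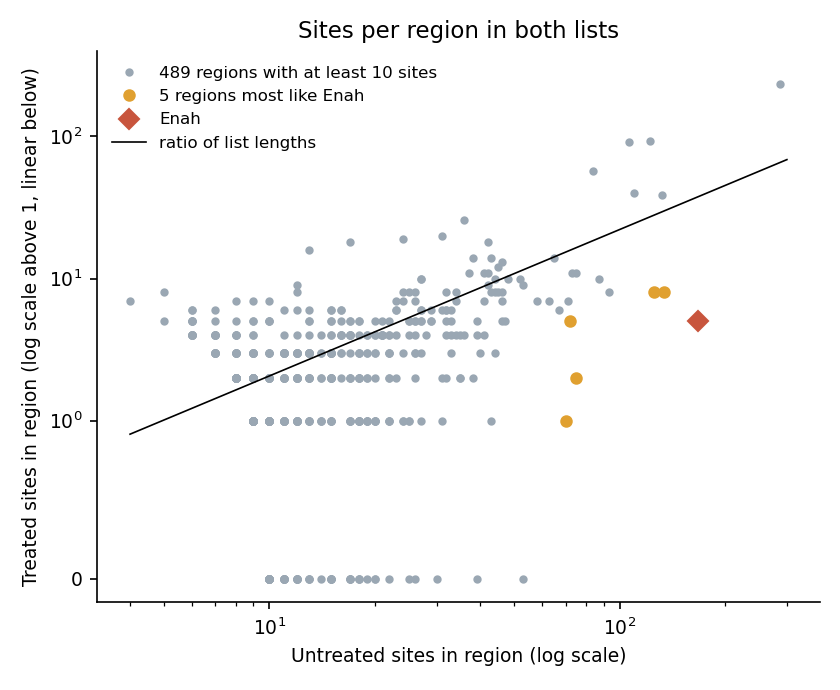
Untreated (x axis, log) and treated (y axis, log above 1 and linear below) sites in each of 489 regions with at least 10 sites; the line is the ratio of list lengths, 4.37. Enah, at 167 and 5 sites, lies far below the line, with the 5 regions most like it to its left.

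By score class, Enah had 19 untreated and 0 treated sites under 10, 58 and 2 from 10 to 17, 88 and 2 from 18 to 99, and 2 and 1 from 100. The untreated to treated ratio of the lists was 8.97, 5.65, 4.20 and 1.74 in the same classes. These numbers are those that chose Enah, split by score, and are given as a description.

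The 5 regions most like Enah in the ratio of treated to untreated sites were also long. They were chosen among regions with at least 50 untreated sites by the smallest difference in the log2 ratio, with 0.5 added to each number. They were chr12:110865388-110979270 on the plus strand with 75 untreated and 2 treated sites, chr10:62267625-62355464 on the minus strand with 70 and 1, and chr7:140177558-140313795 on the minus strand with 134 and 8. The others were chr19:4758489-4811440 with 125 and 8 and chr15:37897653-38006454 with 72 and 5, both on the minus strand. Their spans ran from 53.0 to 136 kb and their median untreated scores from 16 to 19. Like Enah, all 5 had 0 untreated sites on the opposite strand. They differed from one another in where the sites lay, with 9.33 to 41.4% in the last 20% of the span. Treated sites that shared bases with an untreated site numbered 0 of 2, 0 of 1, 3 of 8, 3 of 8 and 1 of 5, in the order named.

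The names of the sites carry a second measure. The rule that chose Enah did not use it, but it comes from the same libraries and is not independent of the site numbers. Each name holds a group number and a suffix for the site within its group. In both lists the number never fell with position on a strand (0 falls) and ran on from strand to strand without overlap (54 strands untreated and 46 treated). Most numbers carry no listed site. Those with a listed site were 21469 of the untreated numbers up to 247324 (8.68%) and 4702 of the treated numbers up to 221592 (2.12%). The sources used here do not say what the unlisted numbers stand for. The highest numbers thus differed between the lists by a ratio of only 1.12, while the lists differed in length by 4.37.

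In the untreated list, group numbers rose faster within Enah than beside it. The untreated sites of Enah ran from number 16326 to 16866, which is 541 numbers or 4.59 per kb. Only 36 numbers lay in the 75.2 kb downstream (0.479 per kb) and 17 in the 259 kb upstream (0.0656 per kb). These stretches reach to the next listed site, so they hold no listed site by definition. Other site-rich long regions also passed many numbers. The 5 with the most untreated sites next to Enah passed 589 over 136 kb, 352 over 53.0 kb, 334 over 76.3 kb, 331 over 114 kb and 218 over 59.0 kb. Enah ranked 2nd of 489 regions by untreated numbers and also 2nd by span, on which that total depends. Of its 541 numbers, 151 had a listed site, or 27.9%, against a median of 25.0% over the 489 regions and 20.0% over the 47 long ones. Of these groups, 16 had 2 sites and none had more.

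**Figure D4:**
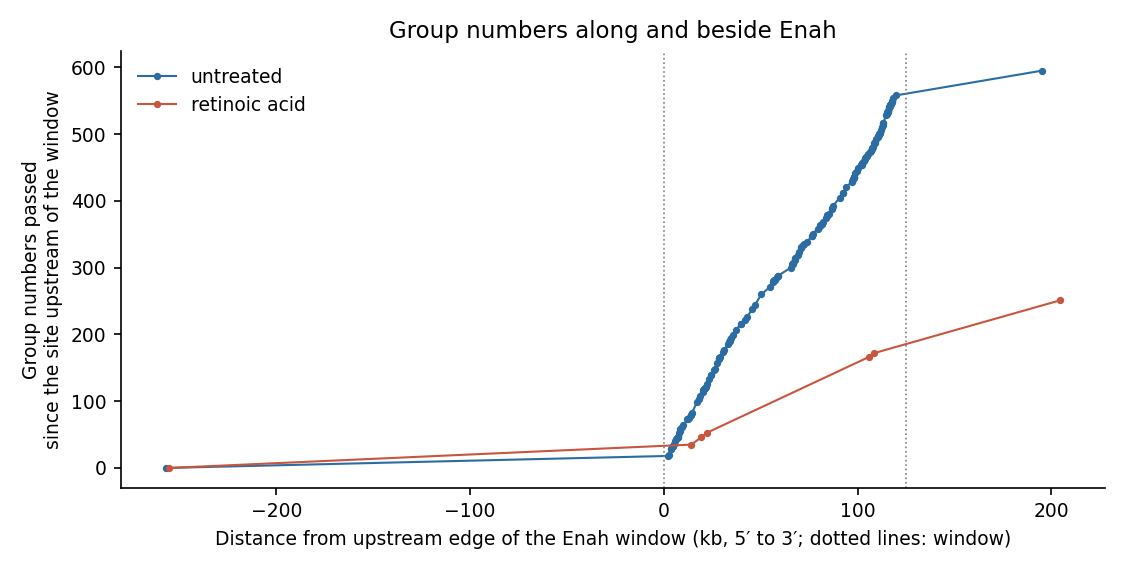
Group numbers passed since the nearest listed site upstream of the window (y axis) by distance from the upstream edge of the window in kb (x axis; dotted lines mark the window); each point is a listed site of the untreated or the retinoic acid list. The untreated line passes 541 numbers from its first to its last Enah site and is much flatter beside the window. The treated line passes 138, and its slope downstream differs less from that within.

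The treated list also passed many group numbers within Enah. From its most upstream to its most downstream Enah site, 94.3 kb, it ran from 14688 to 14825, or 138 numbers (1.46 per kb). Beyond these sites it passed 78 numbers over 95.9 kb downstream (0.813 per kb) and 34 over 270 kb upstream (0.126 per kb), stretches that include the ends of the window, so within and downstream differed less than in the untreated list. Within the same 94.3 kb the untreated list passed 400 to 405 numbers, depending on whether the nearest untreated sites inside or outside the ends are used. The ratio was 2.90 to 2.93, against 1.12 for the highest numbers of the lists. Listed sites over this stretch stood at 105 and 5, a ratio of 21. The share of numbers with a listed site was 24.5% untreated and 3.62% treated, a ratio of 6.76, against 4.09 over the lists. In the 83.2 kb that held no treated site, 112 treated numbers were passed.

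Few regions had so large a ratio of group numbers. It could be taken in 157 regions with at least 10 sites, where treated sites spanned at least 10 kb and at least 2 untreated sites lay between them. Its median was 1.18 (quartiles 0.941 and 1.48). In 12 of 157 regions, or 7.64%, the treated list passed at least 2-fold fewer numbers. Enah ranked 4th. The regions above it were chr19:23212603-23241972 on the plus strand at 3, the chromosome 7 region named above at 3.21 and chr15:61870827-61948377 on the plus strand at 3.57, the last from 25 and 7 numbers. The first and the last of these fall outside the rule for naming and were named after their values were seen. Because the number of groups and the number of sites come from the same libraries, the measure is not independent of the site numbers, and no test was made.

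Along the gene, the share of numbers with a listed site was also higher at the 3′ end. Numbers were counted from the first to the last listed site of each stretch. Those between stretches are left out, so the shares are somewhat too high. Between 110 and 120 kb from the upstream edge, 26 of 59 untreated numbers had a site, or 44.1%, and between 100 and 110 kb 43.2% did. Elsewhere the share per 10 kb ran from 17.4 to 40.0%, leaving out the last 5 kb with its single site. Over the 5 parts of 25 kb, the numbers passed were 122, 99, 79, 99 and 110 and the shares 27.9, 21.2, 27.8, 28.3 and 41.8%. Counted in this way, the parts at both ends passed the most numbers, and of the 5 parts the most downstream had the highest share.

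**Figure D5:**
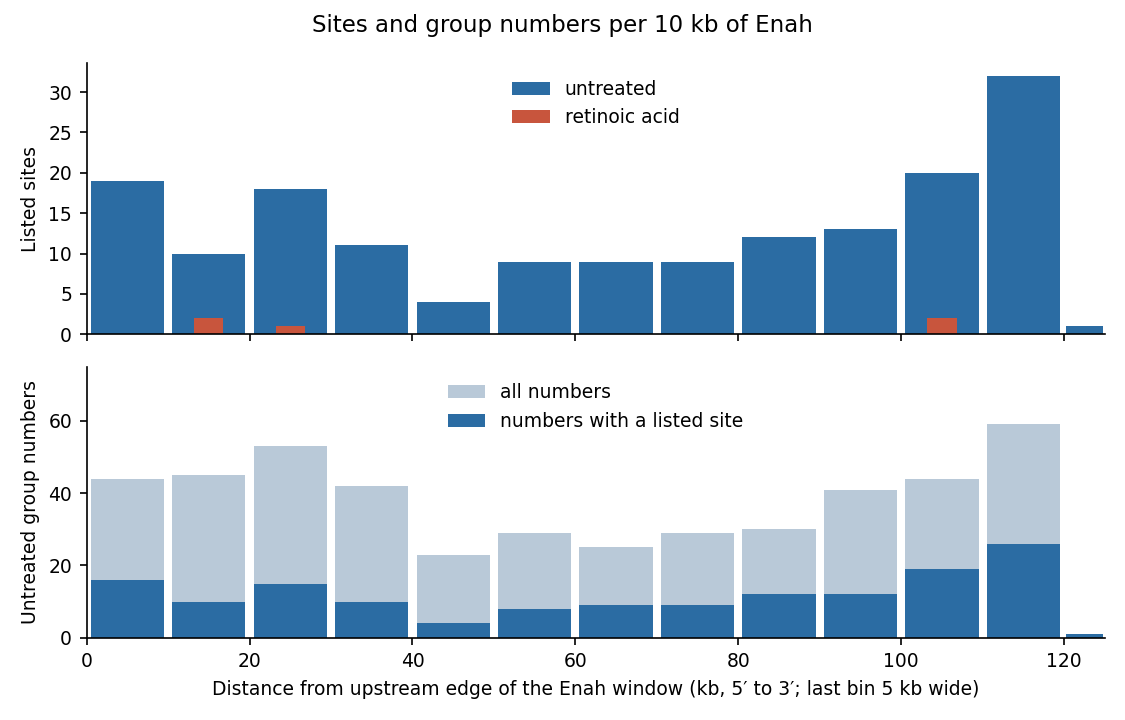
Per 10 kb of Enah from 5′ to 3′ (x axis, kb from the upstream edge), the upper bars count listed sites of the untreated and retinoic acid lists. The lower bars count untreated group numbers from the first to the last listed site of each bin, and those with a listed site. Numbers between bins are left out. Sites number 32 and group numbers 59 between 110 and 120 kb, and 4 and 23 between 40 and 50 kb.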

How the data were processed

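The submitters' processing notes name Bowtie and the mm9 build, with no role, version or parameters. The sources used here do not name the program that called the sites. The deposited lists, each named in the labels for libraries b1 to b3 together, give 1 score per contact site, which was used as deposited by the authors, and a name whose group number was read off. All sites were kept. Coordinates are written from 1.

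Regions are runs of sites of either list with no gap over 10 kb. Intervals are exact 95% intervals for counting error. With 1 pooled list per condition, no test was made and a region was called on a 4-fold difference relative to list length. Region counts were checked on simulated data with gaps of up to 100 kb joined, not at the 10 kb used here. Gap lengths were checked on a small made-up example only. Named were every treated site, the 10 highest-scored, longest, first and last untreated sites, the 5 regions most like Enah and the 5 long regions with the most sites. Enah and these rules were chosen with earlier results of these data known. A list of Ena/VASP partner genes was not run, since no mm9 annotation was used, and for the same reason no sequence is printed. Software was Python 3.11.15, pandas 2.3.3, numpy 2.4.6, scipy 1.17.1 and matplotlib 3.10.9.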

Additional observations from a re-analysis of the deposited data

How the results depend on the processing

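Treated sites made up 2.91% of Enah sites in both lists, against 18.6% over all sites. The share was 3.27% against 19.3% with scores of at least 10, and 5.26% against 31.1% with untreated scores of at least 18 and treated scores of at least 10. With scores of at least 100 it was 33.3% against 36.5%, from only 2 untreated and 1 treated Enah sites. Within 100 bases, 3 treated sites had an untreated neighbour in place of 1 by overlap. Regions at least 4-fold lower numbered 4 of 489 with gaps of 10 kb, 0 of 198 with gaps of 1 kb, 7 of 695 with gaps of 100 kb and 2 of 433 with scores of at least 10. With gaps of 1 kb Enah broke into parts, and the one with the most sites, 31 untreated and 2 treated, was 2.36-fold lower (4th) in place of 7.64-fold (1st). With gaps of 100 kb it became part of a region of 203 kb with 172 and 8 sites, 4.92-fold lower (3rd). The ratio of group numbers was 2.16 at least, if all 250 treated numbers between the sites next to the window are counted. The ratio of summed Enah scores went from 17.9 to 43.1 without the highest-scored Enah site of each list. Group numbers and this last setting were added after the data were seen. No paired analysis was possible because each list pools its libraries, and for the same reason no library could be left out.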
